A study of Mus musculus with 32 samples.

Results

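Gm10601, Gm13302, Gm3893, Gm10600 and Gm12394 are 5 predicted loci on mouse chromosome 4 whose liver RNA signal was far lower in PXR-null than in wild-type mice. They were taken as the genes whose array probes carry exactly 1 of these symbols, which gave 6 probes for 5 genes, out of 10964 probes and 8426 genes with a single-symbol probe. The loci were selected on the measured difference between PXR-null and wild-type arrays, so that difference is described here without a test. PXR (pregnane X receptor, gene Nr1i2) is a transcription factor of hepatocytes that binds foreign compounds and bile acids and switches on genes that clear them. The arrays held total liver RNA of mice labelled C57BL/6J in both genotypes. Wild-type arrays are written WT below, and PXR-null ones KO, for knockout.

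The 32 arrays fell into 8 groups of 4, which combined sex, genotype and diet: males and females, WT and KO, on a control diet or an ethanol (EtOH) diet. For females the diet held 5% EtOH, against a paired-fed control, over 8 weeks, and for males neither the share nor the duration is given in the sources used here. Age, the origin of the KO line and whether KO and WT mice shared litters are likewise not given in those sources. Nothing says that the 4 arrays of a group came from separate animals, so p-values measure the spread between these arrays, which may be technical.

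RefSeq calls all 5 loci pseudogenes, and Gm3893 and Gm12394 transcribed pseudogenes. A pseudogene is a copy of a gene that is not annotated to make its protein, though it may still be transcribed. The stretch of chromosome 4 that holds them is built of near-identical duplicated blocks with several copies of genes for the chemokines Ccl19, Ccl21 and Ccl27 and for the interleukin 11 receptor alpha chain. Duplicated blocks of this kind can differ in number between mouse strains, and the question put to these data was whether copy number could account for the step between genotypes.

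In GRCm38.p6 the loci lie in this order on chromosome 4. Gm10601 (gene 100042466) runs from 41805506 to 41810884, Gm13302 (gene 101056144) from 41893448 to 41895399, and Gm3893 (gene 100042539) from 42089373 to 42092930. Gm10600 (gene 100042472), 452 bases long, follows from 42244297 to 42244748 and is the one with 2 probes, TC0400000401.mm.1 and TC0400000402.mm.1. Gm12394 (gene 100861727) runs from 42790214 to 42804092, but its probe identifier names JH584294, an unlocalized contig of chromosome 4. The 5 loci thus span 998.6 kb. Probes were tied to these loci by symbol. Their annotation gives 2 gene identifiers for the Gm3893 probe, and 0 for TC0400000401.mm.1 and for the probes of Gm10601 and Gm13302. The 6 probes had 6 distinct profiles over the arrays, so no member value below was counted more than once.

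The likeness of the duplicated blocks can be seen in the bases just before the starts of gene copies that sit between the members. Ccl21d lies between Gm13302 and Gm3893, Gm13306 between Gm3893 and Gm10600, and Ccl27b and Ccl21a between Gm10600 and Gm12394. RefSeq's sequences of 100 bases upstream of these 4 starts, in GRCm38.p6 and on each gene's own strand, are shown to make that likeness visible. Capitals mark a base that differs between the copies of a pair.
Ccl21d, chr4:41903503-41903602, plus strand: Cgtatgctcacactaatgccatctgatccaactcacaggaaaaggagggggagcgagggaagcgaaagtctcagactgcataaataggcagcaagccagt
Ccl21a, chr4:42774001-42774100, minus strand: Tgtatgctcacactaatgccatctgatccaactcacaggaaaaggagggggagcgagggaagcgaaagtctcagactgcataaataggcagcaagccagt
Gm13306, chr4:42153304-42153403, plus strand: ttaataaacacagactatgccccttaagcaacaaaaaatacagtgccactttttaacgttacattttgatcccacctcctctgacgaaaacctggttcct
Ccl27b, chr4:42650463-42650562, plus strand: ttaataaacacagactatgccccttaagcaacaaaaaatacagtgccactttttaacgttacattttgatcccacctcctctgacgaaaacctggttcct

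Over the longer stretch that RefSeq's promoter table holds, Ccl21a and Ccl21d had 1 mismatch in 249 bases, and Ccl27b and Gm13306 had 0 in 250. Il11ra2 and Gm13305, a further pair of copies in this stretch, had 0 mismatches in 249 bases. None of the 4 genes printed had a single-symbol probe (0 of 4), and none of the 5 members had an entry in the promoter table. Whether a member's probe also takes up RNA of other copies was not tested, so a value below is that of a probe listed for a locus, not of 1 proven copy.

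Some arrays stood apart. The log2 values of a whole array had an SD of 2.37 to 2.44 in 10 of them (the 8 from KO males, plus the first and second array from control-fed KO females), against 2.47 to 2.54 in the other 22, so in males genotype and this spread cannot be told apart. A term for the narrow arrays, used below, rests only on control-fed KO females, the only group with both kinds, and is carried over to KO males. It widened the SE of the Gm10600 genotype difference from 0.07 to 0.14. A call lost with it therefore need not mean a smaller difference. Array 1 of the EtOH-fed WT males had a log2 intensity of 4.60 for Slco1a1 and 10.5 for Mup20, genes higher in male liver, where the other 3 arrays of its group lay at 7.58 to 9.66 and 11.8 to 12.1. Control-fed WT males lay at 8.69 to 10.95 and 12.1 to 12.3, and control-fed WT females at 4.17 to 4.63 and 10.2 to 10.6. On both genes this library thus had female-like values against its male label. Sex-chromosome genes were not checked, so a wrong label and a change within a male liver cannot be told apart. Results that rest on this library are given with and without it. Nr1i2 itself was not lower in KO, with means of 8.87 ± 0.17 (SD, n = 16) against 8.62 ± 0.24 in WT. Where its probe lies relative to the deleted part is not known, so this does not check the labels. Hepatocyte markers had nearly the same summed log2 level in all arrays (14.8 to 15.1 in WT and 14.8 to 15.0 in KO, 4 of 8 markers measured), and no marker of lymphatic endothelium, a source of Ccl21, was measured (0 of 4).

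Gm10600 had the largest step. On its brighter probe, TC0400000402.mm.1, the 16 WT arrays lay between log2 intensities of 6.91 and 7.88 with a median of 7.62, and the 16 KO arrays between 3.99 and 4.74 with a median of 4.26. The groups did not overlap, and the lowest WT array stood 2.17 log2 units above the highest KO array. Mean intensity was 7.57 ± 0.24 in WT and 4.29 ± 0.22 in KO (SD, n = 16 each), and KO minus WT was -3.28 ± 0.07 (SE), or 9.73-fold in intensity. Its other probe, TC0400000401.mm.1, gave -3.53 ± 0.07, with means of 7.26 ± 0.24 in WT and 3.73 ± 0.26 in KO. Both probes of Gm10600 thus showed the step, with a gap of 2.43 on the second.

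Gm10601 and Gm13302, the neighbouring pair at the low end of the span, had differences of like size. Gm10601 lay between 6.84 and 7.67 in WT (median 7.36) and between 4.46 and 5.31 in KO (median 5.04). Its difference was -2.34 ± 0.07, or 5.05-fold, between means of 7.34 ± 0.20 and 5.00 ± 0.23. Neither group reached into the other, and the gap between them was 1.53. Gm13302 lay between 7.16 and 7.87 in WT (median 7.63) and between 4.90 and 5.63 in KO (median 5.26). The Gm13302 difference was -2.30 ± 0.07, or 4.91-fold, between means of 7.60 ± 0.19 and 5.30 ± 0.21, again with a gap of 1.53.

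The transcribed pseudogenes Gm3893 and Gm12394 had the smaller steps. Gm3893 lay between 6.49 and 7.15 in WT (median 6.90) and between 4.99 and 5.37 in KO (median 5.24). Its means were 6.88 ± 0.16 and 5.24 ± 0.10, its difference -1.64 ± 0.04, or 3.11-fold, and its gap 1.12. Gm12394 lay between 5.65 and 6.46 in WT (median 6.17) and between 4.58 and 5.08 in KO (median 4.81). The Gm12394 means were 6.14 ± 0.20 and 4.80 ± 0.12, which gives a difference of -1.34 ± 0.05, or 2.53-fold, and the narrowest gap of the 5, 0.57. All 5 loci therefore parted the genotypes array by array.

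**Figure D1:**
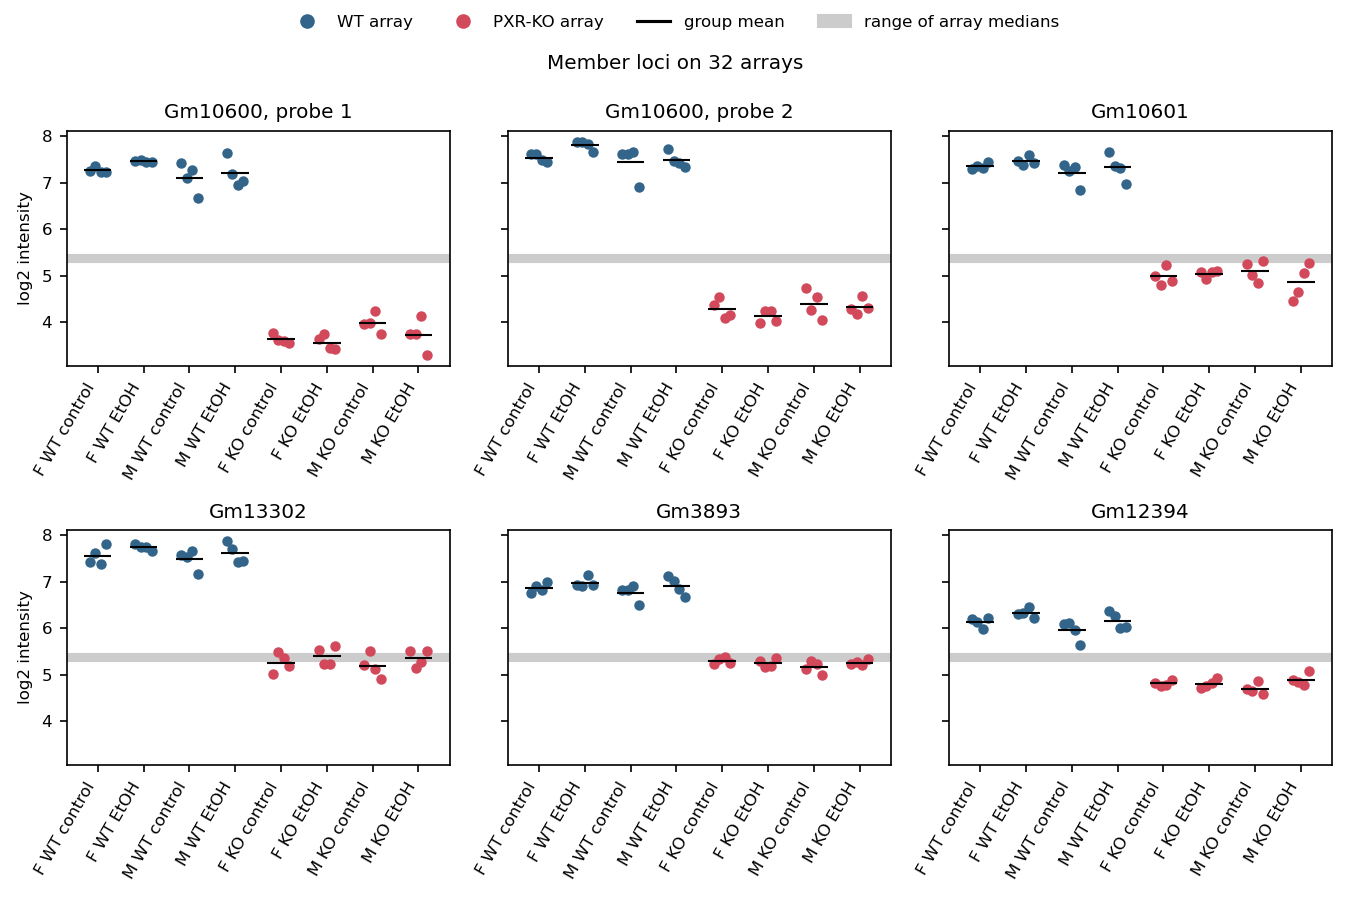
Log2 intensity of the 6 member probes on each of 32 arrays, by sex (F, M), genotype and diet, with the group mean as a line and the range of the array medians as a grey band. Every WT array lies above every KO array for each probe, and the KO values lie near or below the band.

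Of all 8426 genes, 0.57% were lower in KO with no overlap between the 16 KO and the 16 WT arrays, and 0.225% were lower by over 1 log2 unit. All 5 members were in both classes, which their choice fixes. Among the 48 genes lower without overlap, Gm10600, Gm10601 and Gm13302 had the largest, the second and the third largest difference, Gm3893 was at rank 5 and Gm12394 at rank 8. Among all 8426 genes, counted from the lowest difference, the same members were at ranks 4, 5, 6, 8 and 12. Some genes whose genotypes overlap thus had larger drops. These ranks rest on the values by which the members were selected, so they only describe them. A gene counted as called where limma's adjusted p (Benjamini-Hochberg) was under 0.05. Genotype was called for 71.4% of all genes, 30.6% being lower and 40.8% higher in KO, so a call alone sets the members little apart. The median KO minus WT difference was -2.30 over the members and 0.05 over all genes.

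The KO signal of the members lay near the middle of each array or below it. In WT all 16 arrays held each of the 6 probes above the array's own median. In KO this was so on 0 of 16 arrays for both probes of Gm10600, for Gm3893 and for Gm12394, on 1 for Gm10601 and on 6 for Gm13302. In KO the median rank of the probes within their arrays ran from the 30.0th percentile for TC0400000401.mm.1 to the 49.1st for Gm13302, and in WT from the 60.5th for Gm12394 to the 79.2nd for Gm13302. The deposited table has no detection call, so whether any KO signal exceeds background was not tested, and the fold differences may be smaller than those of the RNA. In whole liver, fewer cells of a type and less RNA per cell cannot be told apart.

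The step was present in each sex and diet. For Gm10600 the KO minus WT difference was -3.25 ± 0.14 (SE, 4 against 4 arrays) in control-fed females, -3.68 ± 0.14 in EtOH-fed females, -3.05 ± 0.14 in control-fed males and -3.15 ± 0.14 in EtOH-fed males. The other 4 members kept to narrower ranges. Gm10601 ran from -2.47 to -2.10 over these 4 comparisons, Gm13302 from -2.34 to -2.25, Gm3893 from -1.73 to -1.57 and Gm12394 from -1.52 to -1.25. Gm13302 was thus the most even of the 5. In EtOH-fed females, where no array had the narrower spread, the differences were as large as elsewhere or larger for 4 of the 5, Gm10601 being the exception at -2.41 ± 0.15 against -2.47 ± 0.15 in EtOH-fed males. With the library of female-like values (EtOH-fed WT males, array 1) left out, the differences over all arrays were -3.26 for Gm10600, -2.31 for Gm10601, -2.27 for Gm13302, -1.62 for Gm3893 and -1.32 for Gm12394.

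**Figure D2:**
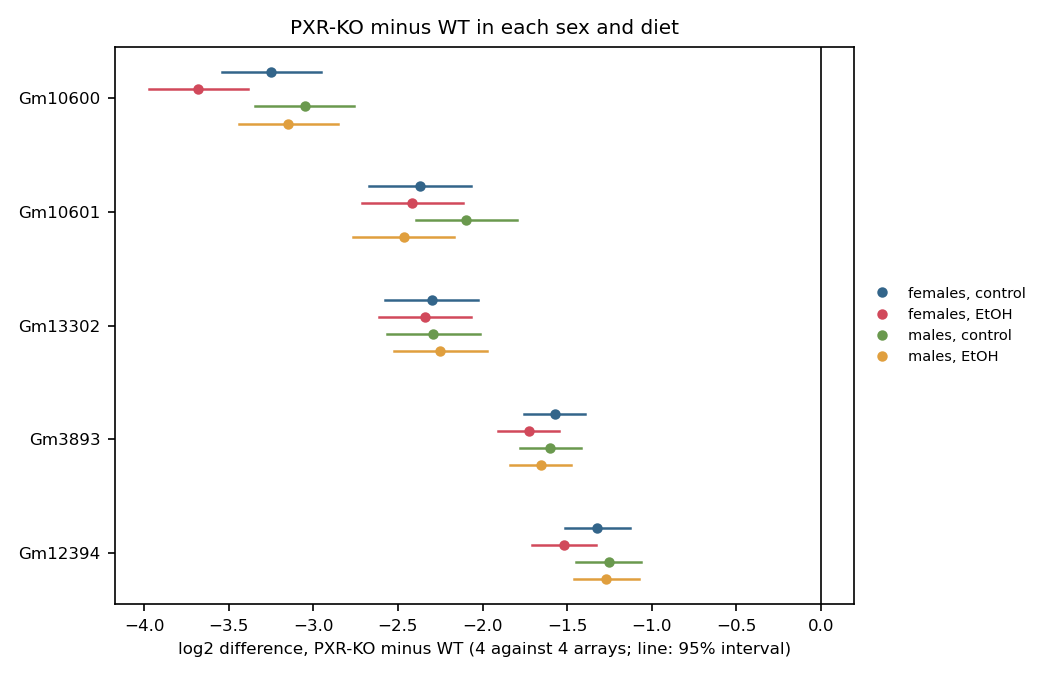
KO minus WT difference in log2 intensity for each member in each sex and diet (points), with the 95% interval of the fit (lines), 4 against 4 arrays each. The points run from -3.68 for Gm10600 to -1.25 for Gm12394, and their side of 0 is fixed by how the members were selected.

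Diet moved the members little. Averaged over sexes and genotypes, EtOH minus control was positive for all 5, between 0.01 for Gm10601 and 0.16 for Gm13302, with a median of 0.08 against -0.01 over all genes. By limma, 1 of the 5 was called, against a background of 8.13% of all genes, and 4.09% called upward. That member was Gm12394, which rose by 0.15 ± 0.05 (adjusted p = 0.0495), and 2 members, Gm12394 and Gm13302, had an unadjusted p under 0.05. In WT females Gm12394 lay at 6.20, 6.14, 5.98 and 6.22 on the control diet and at 6.30, 6.32, 6.46 and 6.21 on EtOH, so the diets overlapped in 1 value. In WT males it lay at 6.10, 6.11, 5.96 and 5.65 on control and at 6.37, 6.26, 6.01 and 6.02 on EtOH. KO values overlapped more widely, from 4.58 to 4.88 on control and from 4.71 to 5.08 on EtOH. The call was at the edge of the threshold: it ended when any 1 of 26 of the 32 arrays was left out (adjusted p up to 0.0836 over these fits), among them array 1 of the EtOH-fed WT males (0.0611). A block on replicate number (0.0601), centring (0.0645), quantile normalization (0.0546), a term for the narrow arrays (0.105) and leaving out the pair of narrow arrays of KO females (0.114) also ended it.

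In the WT arrays alone, chosen after the data were seen because the members have most signal there, EtOH minus control ran from 0.12 for Gm10601 to 0.20 for Gm12394. Here 0 of 5 was called by limma (2 at an unadjusted p under 0.05), against 6.6% of all genes. Gm12394 came nearest, at 0.20 ± 0.07 with an adjusted p of 0.0626. Over the KO arrays the same differences ran from -0.11 for Gm10600 to 0.16 for Gm13302, and 0 of 5 was called (0 at an unadjusted p under 0.05), against 1.1% of all genes. Whether the genotypes differ in this was tested by the interaction of genotype and diet, for which limma called 0 of 5 members (0 at an unadjusted p under 0.05) and 0.202% of all genes. Its value was lowest for Gm10600, -0.26 with a 95% interval of -0.56 to 0.03, and nearest to 0 for Gm13302.

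Sex was not called for any member by limma (0 of 5, and 0 at an unadjusted p under 0.05), although 29.4% of all genes were. Female minus male ran from 0.02 ± 0.07 for Gm10600 to 0.09 ± 0.05 for Gm12394, and the upper ends of the 95% intervals ran from 0.17 to 0.24. A sex difference of more than about that size in this direction lies outside these intervals for each member. Within WT, Gm10600 was 0.20 ± 0.10 and Gm12394 0.17 ± 0.07 higher in females, with 0 of 5 called (1 at an unadjusted p under 0.05), against 5.59% of all genes.

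The genotype step of Gm10600 tended to be deeper in females, but not past the threshold. Its interaction of genotype and sex, the difference in females minus that in males, was -0.37 ± 0.14 with an adjusted p of 0.0566 in limma. Over the 5 members 0 was called and 1 had an unadjusted p under 0.05, against 25.9% of all genes called. For the other 4 the interaction lay between -0.16 for Gm12394 and -0.02 for Gm3893, with 95% intervals that hold 0. On the other probe of Gm10600 it was -0.46 ± 0.15 (adjusted p = 0.0277 over all probes). With a replicate block the brighter probe passed too (0.0314), and so it did when array 1 of EtOH-fed WT males was left out (0.0416) or any of 4 other arrays. These were array 2 of control-fed KO females (0.0348), array 4 of control-fed KO males (0.0326) and, in control-fed WT males, array 1 (0.0458) or array 3 (0.0483). With a term for the narrow arrays, which hold all KO males, it fell to -0.11 ± 0.20 (adjusted p = 0.847). That fit carries the spread seen among control-fed KO females over to the KO males.

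The interaction of diet and sex was called for 0 of 5 members by limma (0 at an unadjusted p under 0.05) and for 0% of all genes, of which 1292 had an unadjusted p under 0.05. The members' values ran from -0.11 for Gm12394 to 0.15 for Gm10601.

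**Figure D3:**
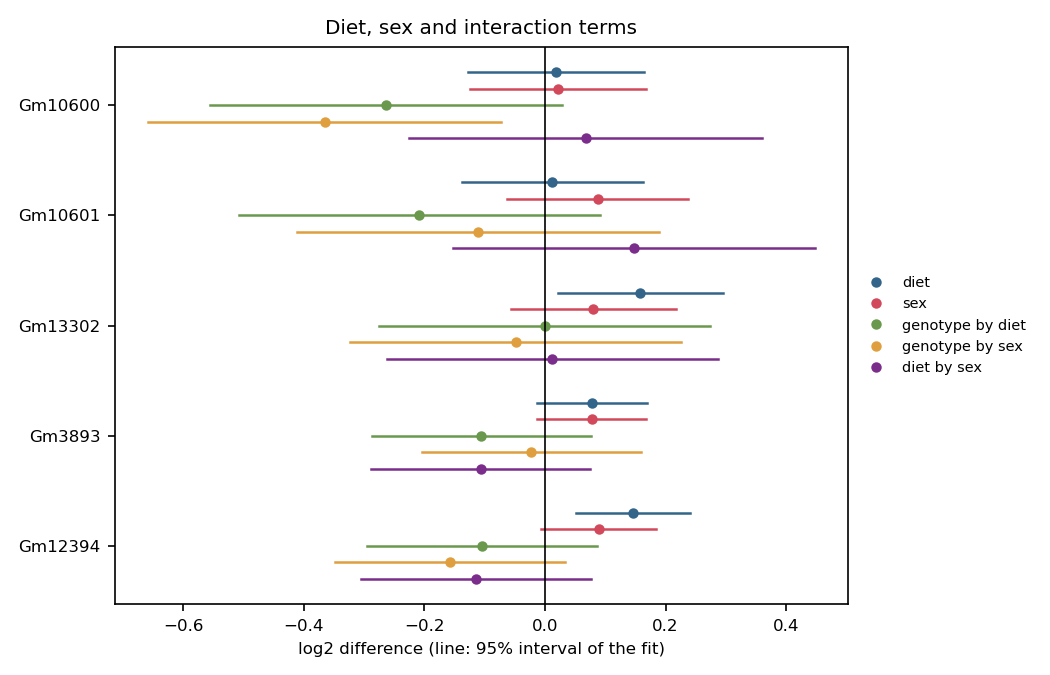
Differences in log2 intensity of the 5 members for diet (EtOH minus control), sex (female minus male) and the 3 interactions (points), with 95% intervals of the fit (lines). Most intervals hold 0. The exceptions are diet for Gm12394 and Gm13302 and genotype by sex for Gm10600, of which only diet for Gm12394 was called after adjustment over all genes.

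Within a group, the members rose and fell together from array to array in WT. This was measured on each array's deviation from its group mean, which takes no part in the choice of the members. The members may share sequence, and whether their probes take up the same RNA was not tested. Over the 16 WT arrays Pearson's r between 2 members ran from 0.69 for Gm10600 and Gm3893 to 0.94 for Gm10601 and Gm3893, with a median of 0.80 over the 10 pairs, and Spearman's rho from 0.54 to 0.90. With permutation of arrays within groups, all 10 pairs passed by Pearson (adjusted permutation p from 0.0014 to 0.0292, adjusted over the 10 pairs) and 9 by Spearman, the exception being Gm10600 and Gm3893 (adjusted permutation p = 0.066). Without the 2 arrays farthest from the median, r ran from 0.40 to 0.87. With the library of female-like values left out, it ran from 0.64 to 0.93.

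In KO 1 of the 10 pairs passed the same test. Over the 16 KO arrays the median r of the 10 pairs was 0.02, and 9 pairs lay between -0.11 and 0.42. Gm13302 and Gm3893 passed, with r = 0.80 and rho = 0.81 (adjusted permutation p = 0.0311 and 0.0203) and r = 0.69 without the 2 farthest arrays. In KO both of these members also followed the array's own median within groups, with r = 0.74 for Gm13302 and 0.79 for Gm3893, and so did Gm12394 with 0.61. In WT the members' r with the array median lay between -0.22 and 0.16, and their r with the SD of all values of an array between 0.22 and 0.61. The part of these array-wide measures in the shared movement was not tested, nor was the difference between the WT and KO correlations. Over all 32 arrays, 4 of the 10 pairs passed, led by Gm13302 and Gm3893 with r = 0.80 and rho = 0.80 (adjusted permutation p = 0.0001, where 1e-05 is the smallest unadjusted p that 100000 permutations can give).

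The WT movement was mostly among males. In control-fed WT males all 5 members were lowest on array 4, on average 0.36 below the group mean, and above the mean on the other 3 arrays, by 0.10 to 0.14 on average. In EtOH-fed WT males all 5 were highest on array 1, the library of female-like values, by 0.25 on average, and below the mean on arrays 3 (by 0.10) and 4 (by 0.21). In WT females the average deviation stayed between -0.09 and 0.09. Without array 4 of the control-fed males, r over the WT arrays ran from 0.54 to 0.91.

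For a background, each member's WT deviations were set against the average of the other 4 members, and the 8421 other genes against the same average. Gm10601 reached r = 0.91, Gm3893 0.90 and Gm12394 0.87, and 0 of the 8421 other genes reached the member's value in each case. For Gm13302 (r = 0.85) 2 other genes did, and for Gm10600 (0.79) 28 did. Over all other genes the median r lay between -0.01 and 0.00, and the 95th percentile between 0.52 and 0.56. In KO the members' own values ran from -0.07 for Gm10601 to 0.51 for Gm3893, and 351 other genes reached the latter. These are descriptions over 16 arrays, which share a normalization.

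**Figure D4:**
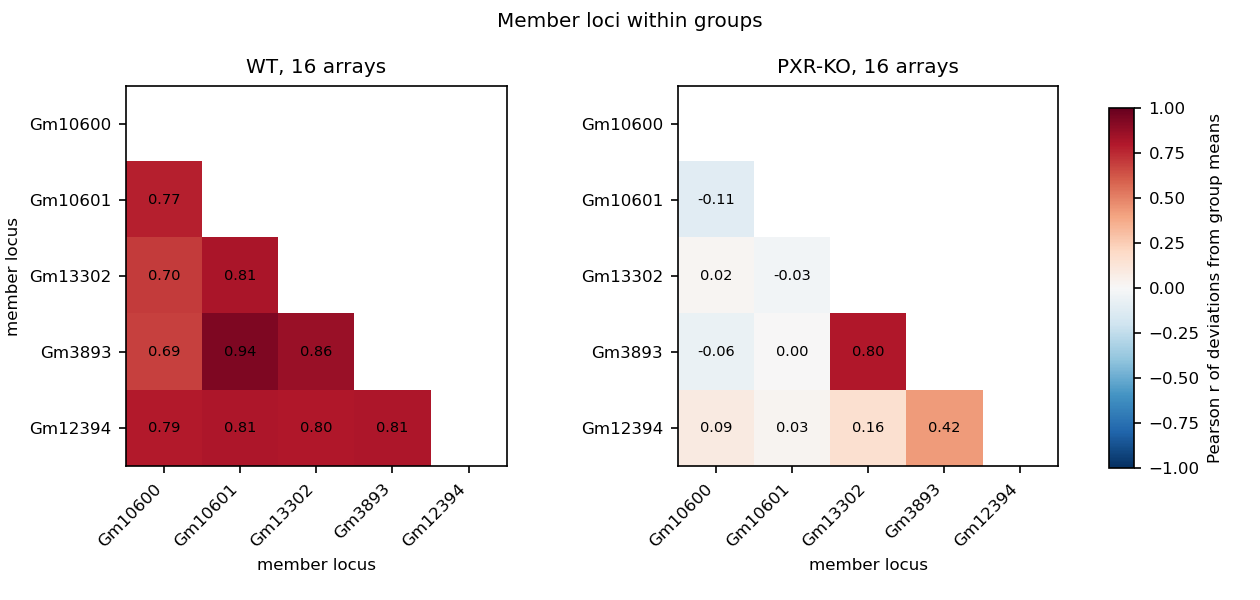
Pearson r between members of their deviations from the group mean, over 16 WT arrays (left) and 16 KO arrays (right), with red for positive and blue for negative values. In WT all 10 values lie between 0.69 and 0.94, and in KO 1 of 10, Gm13302 with Gm3893, lies above 0.42.

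None of the genes around the members that had a single-symbol probe showed a step of this size. Probes of several symbols are outside this comparison. Among those, TC0400000386.mm.1, which lists a member among its 3 symbols, differed by -2.28 without overlap. Which of its symbols that difference belongs to was not tested. Of 139 other genes that RefSeq places within 1 Mb of a member, 24 had a single-symbol probe, and none of the 24 (0) parted the genotypes without overlap. With 0.795% of all genes in that class, a count of 0 among 24 is near the background. Genes on unlocalized contigs of chromosome 4 are outside this count. Among them, Gm7819 (-0.54) and 4933409K07Rik (-0.38) parted the genotypes without overlap. Their probe identifiers name JH584293, as does that of Ccl19, which is among the 24. Whether they lie near the members was not tested. By limma 8 of the 24 were higher in KO, 9 lower and 7 did not pass, beside 71.4% of all genes called. Their median KO minus WT difference was -0.03, and the range was -0.60 to 0.30, so the lowest was nearer to 0 than the -1.34 of Gm12394. With a term for the narrow arrays, 3 of the 24 were called, Gm5859 lower and Gba2 and Npr2 higher, against 5.21% of all genes.

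Enho, which encodes the secreted peptide adropin and lies before Gm10601 at the low end of the span, was the lowest, at -0.60 ± 0.07 (adjusted p = 2.27e-07 in limma, and 0.0614 with the term for narrow arrays). Gm5859, a predicted gene that lies next to Gm10600, was lower by -0.44 ± 0.05 (adjusted p = 3.57e-08, and 0.0434 with that term), between means of 6.13 and 5.69. Gm5859 and Enho were also the neighbours most like the members over the 32 arrays, with r of 0.86 and 0.82 to the members' mean standardized values. Unc13b, which primes synaptic vesicles for release, was lower by -0.28 and the predicted gene Gm12492 by -0.19. Among those named, 4 called neighbours were higher: Hint2, a mitochondrial hydrolase, by 0.19, Gba2, a glucosylceramidase outside lysosomes, by 0.21, Rmrp, the RNA of RNase MRP, by 0.26 and Gm25637 by 0.22. With the term for narrow arrays the call held for Gm5859 and Gba2 (0.0445) and not for the other named ones.

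**Figure D5:**
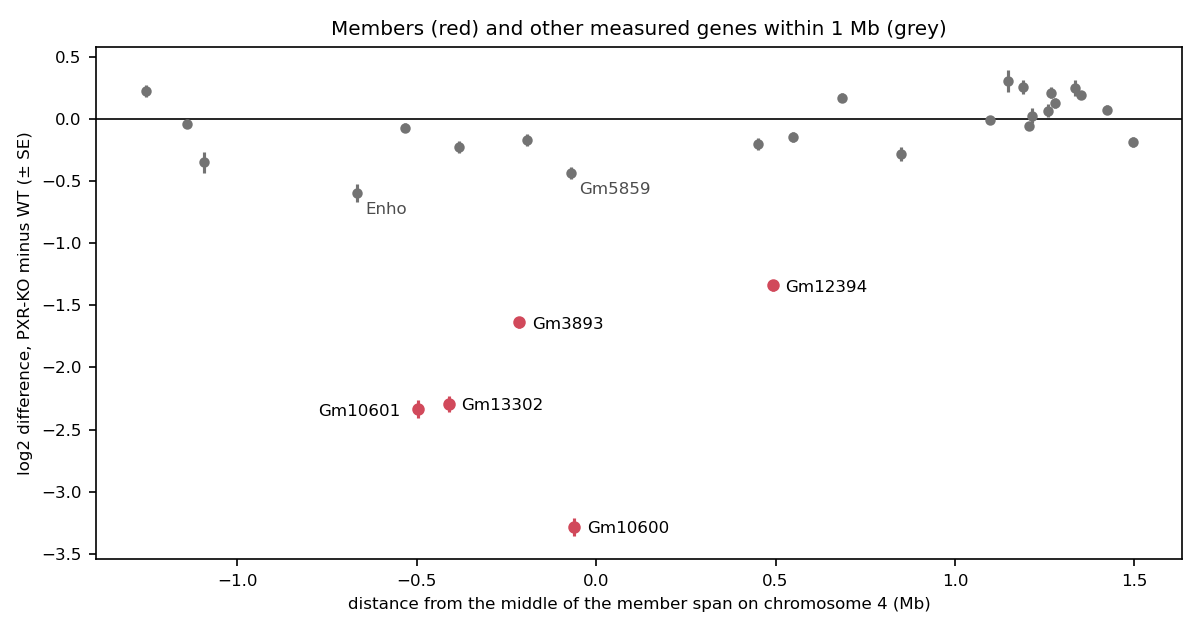
KO minus WT difference in log2 intensity (± SE, 32 arrays) against the distance from the middle of the member span. Shown are the 5 members (red) and the 24 other genes within 1 Mb of a member that had a single-symbol probe (grey). The members lie between -3.28 and -1.34, and all grey points, Enho and Gm5859 included, between -0.60 and 0.30.

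Of the genes of the duplicated blocks themselves, 3 of a list of 35 had a single-symbol probe, and limma called 2 of the 3 lower and 0 higher. Of all genes 71.4% were called and 30.6% called lower, so a count of 2 in 3 says nothing particular about the list. Ccl19, a chemokine that guides T cells and dendritic cells to lymph nodes, was lower by -0.20 ± 0.05 (adjusted p = 7.62e-04), and Fam205a1 by -0.15 ± 0.04 (0.00481). Ccl27a, a chemokine of skin, was at -0.07 ± 0.03 and did not pass (0.066). The median of the 3 was -0.15 against 0.05 for all genes, and 0 of the 3 was called with the term for narrow arrays.

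Other predicted loci of chromosome 4, 220 in number, were spread in both directions. By limma 85 were higher in KO, 77 lower and 58 did not pass, with a median difference of 0.06 against 0.05 over all genes, and 3 parted the genotypes without overlap. These counts are near the background of 71.4% of all genes called and 0.795% without overlap. The lowest of them, Gm7819, was at -0.54, so none was lower by over 1 log2 unit (0 of 220, beside 0.225% of all genes). With the dimmest 33.33% of genes left out, the split became 20 higher and 74 lower, with quantile normalization 34 and 56, and with the term for narrow arrays 4 and 4.

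The genes most like the members over the 32 arrays came mostly from other chromosomes. Likeness was Pearson's r to the mean of the members' standardized values, which the step between genotypes dominates, and each member's own r was 0.99 to 1.00. Pttg1 on chromosome 11, which encodes securin, the inhibitor of the protease that parts sister chromatids, was the most alike (r = 0.98), at 5.88 in WT and 4.33 in KO on average. Next were Mcam, a cell adhesion molecule (0.95), Rerg, a small GTPase (0.94), and Bid, a pro-apoptotic protein (0.94). Gm7819 and 4933409K07Rik (both 0.93), whose probe identifiers name the unlocalized chromosome 4 contig JH584293, followed. Vmn2r29, Gm14127, the Mediator subunit Med21 and the NLR family gene Nlrp12 made up the 10, with r from 0.92 to 0.93. All 10 were lower in KO without overlap, beside 0.57% of all genes, but their choice by likeness to the step favours this. The difference ran from -0.38 for 4933409K07Rik to -1.55 for Pttg1.

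The labels give C57BL/6J for both genotypes and DNA was not measured, so copy number was not tested, and with 1 KO and 1 WT population it cannot be told apart from other differences between them, the loss of PXR included. The gaps between genotypes and the differences per sex and diet are the values on which the members were selected and add nothing on this question. Nnt, the mitochondrial transhydrogenase, was looked at after its values were seen because C57BL/6J mice are known to carry a deletion in it. Nnt lay between 8.00 and 8.58 in WT (mean 8.27 ± 0.15, n = 16) and between 8.94 and 9.17 in KO (9.06 ± 0.09), with no overlap and a difference of 0.79. Where its probe lies relative to that deletion is not known here, and the part of strain background in the members' step was not tested.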

How the data were processed

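Total liver RNA was hybridised to 32 Affymetrix arrays. The deposited values are log2 intensities of 10964 probes that the authors had already normalized; the tools listed in the submitters' processing notes are limma and oligo, with no version, and the background correction, summarization and normalization are not given in the sources used here. Array medians were 5.29 to 5.43. The number of arrays limits the precision.

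The probe annotation gave 8474 probes 1 symbol, 632 several and 1858 none, and 239 symbols were updated by gene identifier. Of several probes for a gene, the brightest on average was used. Positions follow RefSeq's GRCm38.p6 table. limma 3.58.1 in R 4.3.3 fitted 1 mean per group over all 32 arrays, with empirical Bayes, and adjusted p-values (Benjamini-Hochberg, two-sided) over 8426 genes. It was tested on simulated data. Pairs of members were tested with 100000 permutations within groups.

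The members and gene lists were chosen with earlier results of these data known. Named were all members, the 10 genes most like them, called neighbours and family genes (at most 8 each by smallest p) and Nr1i2. Alternatives were all probes, means of probes, no dim genes, centring, quantile normalization, robust moderation, array weights, a replicate block, a term for narrow arrays, and arrays left out. Tests within WT or KO alone were added after seeing the data. Markers of other cell types were also fixed: 7 of 7 Kupffer, 1 of 4 endothelial, 4 of 5 T and NK, 2 of 4 stellate, 2 of 4 cholangiocyte and 0 of 3 B cell markers were measured, with median KO minus WT differences of 0.11, -0.28, 0.11, -0.41 and -0.22 for the first 5 lists.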

Additional observations from a re-analysis of the deposited data

Results flagged for a closer look

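In groups of 4 arrays, 48 member groups were examined and 4 held an array far from the other 3, where chance alone gives about 1 in 20. TC0400000402.mm.1 of Gm10600 was at 6.91 on array 4 of control-fed WT males, against 7.61 to 7.66 on the others, and this is the array on which all 5 members were lowest in that group. TC0400000401.mm.1 of Gm10600 was at 7.36 on array 2 of control-fed WT females, against 7.22 to 7.24. Gm3893 was at 7.15 on array 3 of EtOH-fed WT females, against 6.91 to 6.93. Gm10601 was at 4.92 on array 2 of EtOH-fed KO females, against 5.08 to 5.10. None of these values reached the other genotype's range.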

How the results depend on the processing

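No called difference of a single member, and no median genotype difference of the members, changed direction under any alternative run. For lists of genes only the number called was compared, not the direction. Their balance did shift: all genes called for genotype went from 3437 higher and 2578 lower to 1301 and 2428 without dim genes. The median KO minus WT difference of the members, -2.30, ran from -2.32 to -2.27 as each array was left out, and in the 4 sex and diet groups from -2.36 to -2.21 (control-fed females), -2.42 to -2.28 (EtOH-fed females), -2.22 to -2.01 (control-fed males) and -2.31 to -2.16 (EtOH-fed males). Members called for diet went from 1 to 0 with centring, quantile normalization, a replicate block, the term for narrow arrays and without the narrow arrays of KO females, and from 0 to 1 as arrays were left out. For diet in WT, 1 was called with array weights and 1 without the dimmest genes, and 0 to 1 as arrays were left out. For genotype by sex 1 was called with all probes, means of probes, array weights, centring, a replicate block and without those KO female arrays, and 0 to 1 as arrays were left out. For sex in WT 1 was called with array weights. Called neighbours fell from 17 to 3 with the narrow term and were 17 to 18 as arrays were left out; family genes fell to 0 with that term and were 2 to 3; predicted loci went from 162 to 94 without dim genes, 90 with quantile normalization and 8 with the narrow term, and were 154 to 166. Member pairs that passed were 4 in all arrays, 2 by Spearman, 2 after quantile normalization, 10 in WT and 1 in KO. All-gene calls moved most for genotype, from 6015 to 3729 without dim genes, 3700 with quantile normalization and 439 with the narrow term. Centring and quantile normalization moved the all-gene median difference by 0.05 and -0.06. The replicate numbers did not pair the arrays: over 112 same-numbered pairs r ran from -0.49 to 0.40 and 7 of 32 arrays correlated best with their own number; the block left the number of called members the same for sex, genotype by diet and diet by sex. Causes of these changes were not tested. Arrays give no depth, and the KO signals have no detection call, which limits what their size means.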

Other observations

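Of 546 chromosome 4 genes tested, 12 parted the genotypes without overlap, beside 0.795% of all genes, and these were named after their values were seen. They were the 5 members, which their selection put there, Gm7819 and 4933409K07Rik on unlocalized contigs (-0.54 and -0.38), and 5 genes far from the members. Alad, an enzyme of heme synthesis 20.2 Mb from the middle of the member span, was higher by 0.85, Gm25811 by 0.94 and Mrpl20, a mitochondrial ribosomal protein, by 0.50, while Arhgef16 was at -0.27 and Pusl1 at -0.32.

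A class defined after the data were seen holds the 23 probes, with 19 distinct profiles, that are listed with several symbols of which at least 1 is a member or a gene of the duplicated blocks. All 23 were lower in KO on average, with a median difference of -0.14 against 0.05 over all genes. Of these probes, 4 parted the genotypes without overlap, beside 0.795% of all genes. The 4 include the 2 probes that list a member. Whether their differences are those of the selected loci or of the other symbols listed was not tested. Also among the 4 is TC0400002488.mm.1, whose means of 6.06 in WT and 5.68 in KO are those of 4933409K07Rik, already counted above. The 2 that list a member were TC0400000386.mm.1, at 7.46 ± 0.21 in WT and 5.18 ± 0.08 in KO (SD, n = 16), and TC0400002507.mm.1, with a difference of -0.86. Of the other 21, the largest difference was -0.68 and the smallest -0.04. Which copy a probe of several symbols measures was not tested.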
